A study of Homo sapiens with 13 samples.

Results

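The genes described here encode the secreted antagonists of Wnt signaling: SFRP1, SFRP2, SFRP4, SFRP5, FRZB, WIF1, DKK1, DKK2, DKK3 and DKK4. They were chosen by gene name, and each name was found once in both count tables, giving 10 of the 61541 human features listed. RNA was sequenced in bulk from human embryonic stem cells of the line RUES2 that carry a GFP::SMAD4 fusion. All cells were grown in mTeSR1 medium with ROCK inhibitor. In the time series, 7 libraries made after ribosomal RNA depletion covered 0, 4, 12, 20, 28 and 42 h after addition of 100 ng/mL BMP4 together with 5 µM IWP2, an inhibitor that blocks the secretion of WNT ligands. The sample labels give the 0 h libraries the same treatment, and these were read as cells collected when treatment began. In the dose response, 6 polyA-selected libraries were made at 5 h, of which 5 received BMP4 and IWP2 with 0, 10, 30, 100 or 300 nM LDN-193189, an inhibitor of BMP type I receptors, and 1 was left untreated in mTeSR. There were 2 libraries at 0 h and 1 library for every other time or dose, and the 2 experiments used different RNA kits and library preparations, so levels were never compared between them. Every library with BMP4 also received IWP2, so the effects of these agents cannot be told apart. All cells came from a single tagged line, and nothing in the labels says that the 0 h pair came from separate cultures, so the p-values between times may measure technical spread only. In the straight-line fits over hours and over dose, the error is the scatter of the libraries about the line. Their p-values therefore reflect how well a line fits and not the spread of replicates, and no dose was replicated.

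WNT proteins signal by bringing together a Frizzled receptor and a co-receptor, LRP5 or LRP6, at the cell surface, which stabilizes β-catenin. Secreted antagonists act outside the cell at different points of this step. The secreted Frizzled-related proteins (SFRP1, SFRP2, SFRP4, SFRP5 and FRZB, also named SFRP3) carry a domain resembling that of Frizzled receptors and bind WNT ligands, as does WIF1, which has a different ligand-binding domain. DKK1, DKK2 and DKK4 instead bind LRP5 and LRP6, with Kremen proteins as additional receptors, whereas DKK3 is a divergent family member that is not a typical LRP ligand. Antagonists of this kind restrict Wnt activity around the primitive streak and the anterior of the early embryo. None of the transcript levels below measures secreted protein.

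Library totals ranged from 37957385 to 71333471 counts in the time series and from 15600931 to 33989998 in the dose response, where the untreated library was the smallest. A floor of 3 counts, taken here as the limit of detection, corresponded to at most 0.079 CPM (counts scaled to the library total) in the time series and 0.192 CPM in the dose response. Mitochondrial transcripts took 2.01 to 7.60% of the counts in the time series and 4.22 to 7.89% in the dose response, with the highest values in a 0 h library and the untreated library. The labelled cell state was checked against marker genes. In the 0 h pair, POU5F1, a regulator of pluripotency, was at 986 and 1675 TMM-scaled CPM, the first replicate well below the second, and SOX2 was at 383 and 365. The summed level of the 6 amnion-like markers rose from 12.6 TMM-scaled CPM in both 0 h libraries to 4712 at 42 h, of which HAND1 alone made up 3367. In contrast, 4 of the 5 pluripotency markers, NANOG, SOX2, TDGF1 and PRDM14, fell. The fifth, POU5F1, was at 1321 TMM-scaled CPM at 42 h, between the values of the 0 h pair. The state of the cells therefore changed in the same libraries as the antagonists. In bulk RNA, fewer cells expressing a gene and less of its RNA per cell cannot be told apart.

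The antagonists differed widely in level, and SFRP2 and SFRP1 made up most of the total. Per length, in the FPKM values deposited by the authors, SFRP2 ranked first in all 13 libraries, and dividing CPM by exonic length gave SFRP2 the same first rank. The summed FPKM of the 10 genes was 311 and 303 in the 0 h pair and 293, 303, 315, 238 and 152 at 4, 12, 20, 28 and 42 h. SFRP2 and SFRP1 together made up 82.1 to 95.1% of the sum across all libraries. The share of SFRP1 was 34.0 and 33.3% at 0 h, fell to 2.79 and 3.05% in the 20 and 28 h libraries, and was 39.7% in the last one. In FPKM, DKK3 was second after SFRP2 at 20 and 28 h, when it made up 10.7 and 16.7% of the sum, and SFRP1 was second in every other library. With CPM divided by exonic length, DKK3 was second at 28 h but came after SFRP1 at 20 h. That length covers all annotated exons of a gene. It was 11958 bases for DKK3 against 2525 in its canonical transcript, and 4733 against 4464 for SFRP1. The part of this length in the change of rank was not tested. Without replicates after 0 h, these ranks and shares are descriptions of single libraries.

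**Figure D1:**
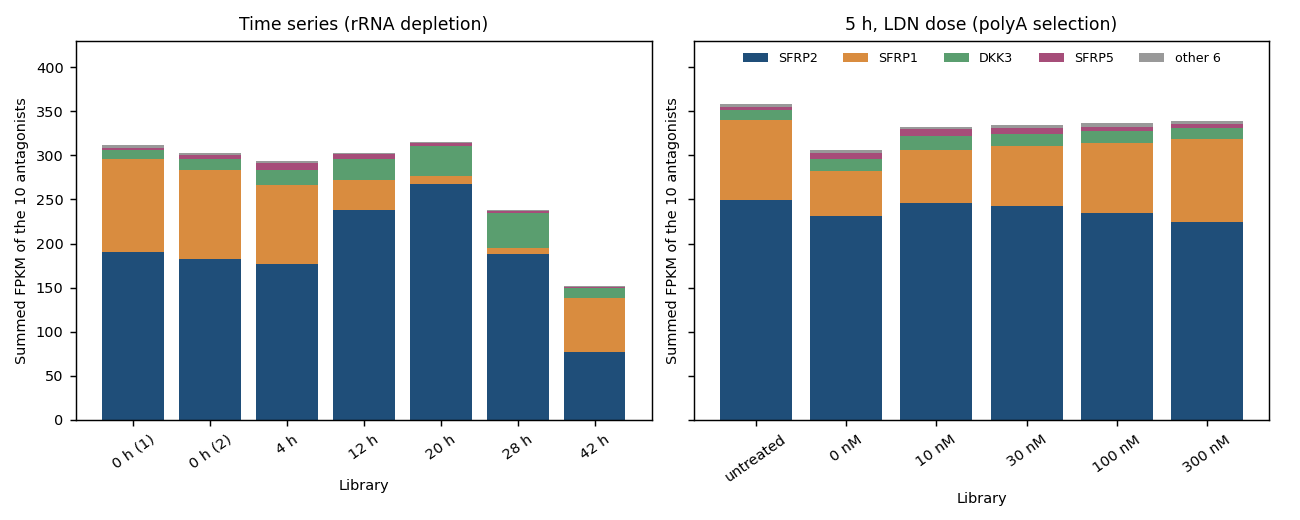
Summed FPKM of the 10 antagonists in each library of the time series (left) and of the 5 h dose response (right), with colored segments for SFRP2, SFRP1, DKK3, SFRP5 and the other 6 genes. SFRP2 is the tallest segment in every bar, the SFRP1 segment shrinks to 2.79 and 3.05% of the bar at 20 and 28 h, and the sum falls to 152 FPKM at 42 h.

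Testing required a mean of 1 CPM or more. SFRP1, SFRP2, SFRP5, FRZB, DKK2 and DKK3, 6 of the 10 genes, passed in the time series, and SFRP1, SFRP2, SFRP5, FRZB, WIF1 and DKK3 passed in the dose response. SFRP4, DKK1 and DKK4 passed in neither experiment. DKK2 passed in the time series only through its late libraries, where it was high. Its edgeR tests are therefore given in the text without a filter on low counts. It is left out of the counts of called genes, except in the closing section, where its inclusion is stated. The other 5, SFRP1, SFRP2, SFRP5, FRZB and DKK3, all changed in edgeR's quasi-likelihood F-test over all times at an adjusted p under 0.05, against 34.9% of all 15976 genes tested. Changes against 0 h rest on the spread of the single 0 h pair, moderated across all genes, and assume that the later single libraries vary like that pair.

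The promoters of these genes were examined in 6 cases, and that of SFRP5 is shown because its level followed the BMP inhibitor, that of SFRP2 because its level barely moved with it, and that of DKK1 because its transcript was near the floor throughout. The sequences are the 250 bases upstream of the RefSeq start (GRCh38.p14), written 5′ to 3′ on the strand of the gene, and capitals mark the words searched. SFRP5 lies at chr10:97772000-97772249 on the minus strand, SFRP2 at chr4:153789084-153789333 on the minus strand and DKK1 at chr10:52314031-52314280 on the plus strand.
SFRP5: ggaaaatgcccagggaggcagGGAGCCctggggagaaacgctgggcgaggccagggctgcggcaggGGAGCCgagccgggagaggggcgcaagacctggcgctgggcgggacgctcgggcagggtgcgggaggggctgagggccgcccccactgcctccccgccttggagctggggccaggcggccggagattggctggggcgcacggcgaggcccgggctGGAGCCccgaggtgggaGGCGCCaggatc
SFRP2: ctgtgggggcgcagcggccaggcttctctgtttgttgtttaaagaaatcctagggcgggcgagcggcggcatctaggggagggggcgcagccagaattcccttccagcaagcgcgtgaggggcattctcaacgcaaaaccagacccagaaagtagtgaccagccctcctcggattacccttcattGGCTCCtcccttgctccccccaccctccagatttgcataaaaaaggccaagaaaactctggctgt
DKK1: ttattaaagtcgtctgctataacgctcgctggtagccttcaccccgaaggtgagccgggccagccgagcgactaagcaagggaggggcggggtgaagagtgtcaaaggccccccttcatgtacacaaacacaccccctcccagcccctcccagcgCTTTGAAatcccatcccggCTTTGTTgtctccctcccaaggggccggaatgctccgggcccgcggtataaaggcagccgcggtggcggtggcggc

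Both strands were searched for GGCGCC and GGAGCC, words known to be bound by BMP-responsive SMAD proteins, for GTCTAGAC, a palindromic SMAD word, and for the TCF/LEF word CTTTG followed by any pair of A or T. The SFRP5 window held 1 GGCGCC, starting 12 bases upstream of the start, and 3 copies of GGAGCC. In the SFRP2 window there was 1 GGAGCC, read on the opposite strand as GGCTCC, and no GGCGCC. The windows of WIF1 and SFRP4 also held 1 GGAGCC each and no GGCGCC. G and C made up 76.8% of the SFRP5 window and 57.6% of the SFRP2 window. The DKK1 window held 2 TCF/LEF words and neither GC-rich word. No GTCTAGAC was found in the 6 windows. Across 35114 promoters of the same length, 16.4% held GGCGCC, 30.6% held GGAGCC, 12.0% held a TCF/LEF word and 0.182% held GTCTAGAC. At least 2 copies of GGAGCC were found in 7.42% of them, and at least 2 TCF/LEF words in 1.21%. These matches describe letters and say nothing about whether a factor binds.

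SFRP1, the most abundant antagonist in CPM at 0 h, fell steeply to 28 h, where 1799 counts remained, and then returned (chromosome 8, 41261962 to 41309473, minus strand, GRCh38, 3 exons). Its level was 435 and 411 TMM-scaled CPM in the 0 h pair (423 ± 17.4, SD, n = 2) and 350, 137, 37.0, 31.3 and 293 at 4, 12, 20, 28 and 42 h. The 20 and 28 h libraries were the lowest, and the 42 h library lay between those of 4 and 12 h. In edgeR's quasi-likelihood test, SFRP1 was lower than at 0 h by a log2 change of -1.63 ± 0.37 (SE, adjusted p = 0.000199) at 12 h, -3.52 ± 0.41 (adjusted p = 4.41e-16) at 20 h and -3.76 ± 0.42 (adjusted p = 6.48e-18) at 28 h. The change at 4 h, -0.27 ± 0.34, and that at 42 h, -0.53 ± 0.34, did not pass the test (adjusted p = 0.997 and 0.231 by edgeR). Between neighbouring times SFRP1 fell from 4 to 12 h (log2 change -1.35, adjusted p = 0.0473 by edgeR) and from 12 to 20 h (-1.89, adjusted p = 0.000376), and then rose 9.37-fold from 28 to 42 h (3.23 ± 0.43, adjusted p = 9.9e-12). The fall from 4 to 12 h was lost under looser filters on low counts, with adjusted p = 0.0809 by edgeR when the minimum was 0.1 CPM. Because of the return, a straight line over the hours gave -1.08 ± 1.02 from 0 to 42 h (adjusted p = 0.436 by edgeR). Without the 42 h library the line gave -6.14 ± 0.53 (adjusted p = 0.000168 by edgeR), extrapolated to 42 h from libraries that end at 28 h. The return rests on 1 library.

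SFRP2 moved far less than SFRP1 and reached its lowest level at the last time (chromosome 4, 153780591 to 153789083, minus strand, 3 exons). Its level was 321 and 306 TMM-scaled CPM in the 0 h pair (314 ± 10.8, SD, n = 2) and 283, 393, 465, 335 and 155 at 4, 12, 20, 28 and 42 h. The 20 h library was the highest and the 42 h library the lowest of the 7. By edgeR, the change against 0 h was 0.57 ± 0.33 at 20 h, which did not pass the test (adjusted p = 0.256), and -1.02 ± 0.36 at 42 h, which did (adjusted p = 0.0142). The fall of 1.11 on the log2 scale from 28 to 42 h missed the threshold (adjusted p = 0.0535 by edgeR).

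SFRP5, much less abundant, was low again by 28 h after its highest readings at 4 and 12 h (chromosome 10, 97766751 to 97771999, minus strand, 3 exons). Its level was 4.41 and 6.65 TMM-scaled CPM in the 0 h pair (5.53 ± 1.58, SD, n = 2) and 10.6, 9.72, 5.30, 2.80 and 1.23 at 4, 12, 20, 28 and 42 h. Both early libraries lay above the 0 h pair, and the 28 and 42 h libraries lay below it. The log2 change against 0 h at 4 h was 0.93 ± 0.34 and did not pass (adjusted p = 0.105 by edgeR), although scaling by library totals gave 1.01 (adjusted p = 0.0486). SFRP5 was lower than at 0 h at 28 h (-0.99 ± 0.37, adjusted p = 0.0415 by edgeR) and at 42 h (-2.18 ± 0.41, adjusted p = 8.87e-07). The call at 28 h was lost with DESeq2 (adjusted p = 0.204) and without a filter on low counts (adjusted p = 0.0649 by edgeR).

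FRZB fell step by step from a low level (chromosome 2, 182833275 to 182866637, minus strand, 6 exons). Its level was 2.98 and 2.83 TMM-scaled CPM in the 0 h pair (2.90 ± 0.11, SD, n = 2) and 2.3, 1.52, 0.94, 0.82 and 0.25 at 4, 12, 20, 28 and 42 h, where 13 counts remained. Each later time was below the time before it. The fall against 0 h passed at 20 h (log2 change -1.62 ± 0.50, adjusted p = 0.00843 by edgeR), 28 h (-1.82 ± 0.51, adjusted p = 0.00233) and 42 h (-3.55 ± 0.60, adjusted p = 2.98e-08), and the calls at 20 and 28 h were lost with DESeq2 (adjusted p = 0.133 and 0.0725).

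WIF1 had a mean of 0.747 CPM in the time series and was not tested there (chromosome 12, 65050626 to 65121305, minus strand, 10 exons). Its level was 1.63 and 1.51 TMM-scaled CPM in the 0 h pair (1.57 ± 0.083, SD, n = 2) and 0.96, 0.58, 0.15, 0.12 and 0.11 at 4, 12, 20, 28 and 42 h. Counts went from 63 and 111 at 0 h to 6 at 42 h, and the 3 latest libraries were the lowest. With the filter lowered to a mean of 0.1 CPM, edgeR gave a log2 change over 0 to 42 h of -4.42 ± 0.64 (adjusted p = 0.0013).

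**Figure D2:**
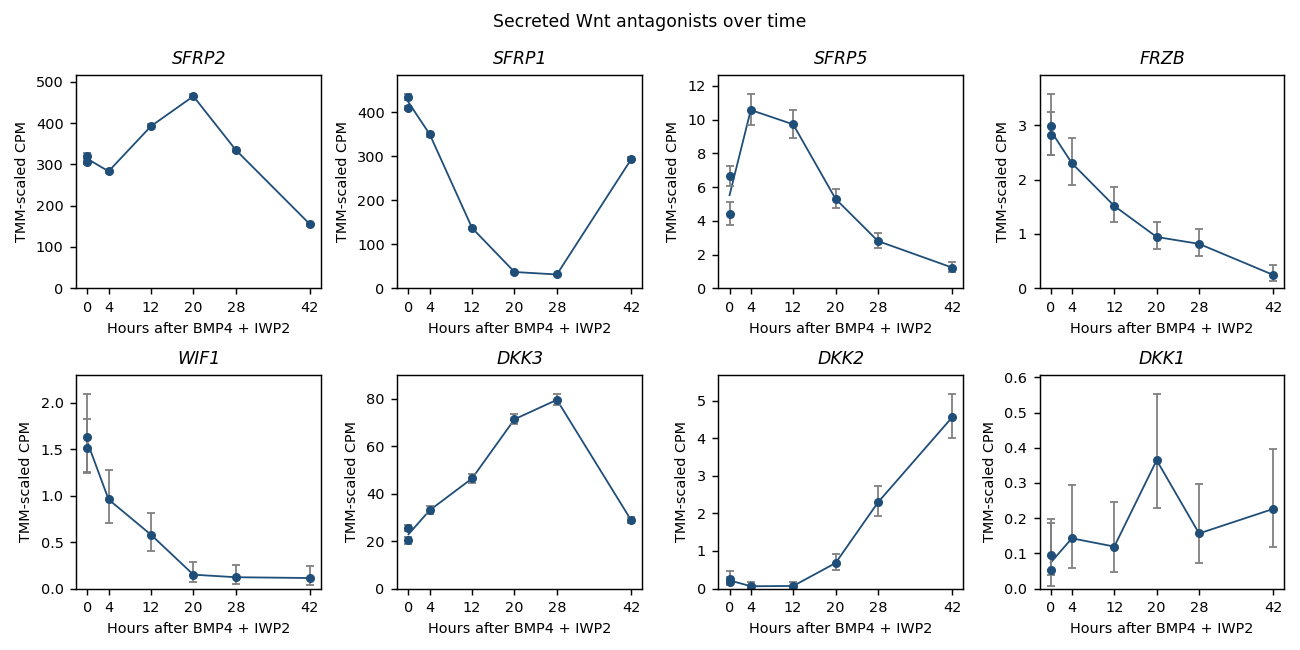
TMM-scaled CPM of 8 antagonists against hours after BMP4 and IWP2, where each point is 1 library, the line joins the means per time and the bars are 95% exact counting intervals. SFRP1 dips to 31.3 at 28 h and stands at 293 at 42 h, DKK3 peaks at 79.5 at 28 h, DKK2 climbs to 4.56 at 42 h, and FRZB and WIF1 decline throughout.

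The DKK genes did not move together. DKK2 was near the floor until 12 h and then climbed (chromosome 4, 106921802 to 107283806, minus strand, 4 exons). Its level was 0.26 and 0.18 TMM-scaled CPM in the 0 h pair (0.22 ± 0.058, SD, n = 2) and 0.061, 0.068, 0.68, 2.29 and 4.56 at 4, 12, 20, 28 and 42 h, or 10, 13, 3, 4, 41, 132 and 242 counts. The 20, 28 and 42 h libraries were above all earlier ones. Without a filter on low counts, where its inclusion did not depend on the late libraries, DKK2 rose against 0 h by a log2 change of 1.69 ± 0.50 at 20 h (adjusted p = 0.0114 by edgeR), 3.45 ± 0.46 at 28 h (adjusted p = 4.25e-12) and 4.51 ± 0.45 at 42 h (adjusted p = 2.22e-21). With DESeq2, on genes averaging 1 CPM or more, the change at 20 h did not pass (adjusted p = 0.273). Even at 42 h its level per length, 1.3 FPKM, was far under the 77.4 FPKM of SFRP2 and the 60.5 FPKM of SFRP1.

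DKK3 rose to a peak at 28 h and then fell back (chromosome 11, 11956207 to 12009769, minus strand, 7 exons in the canonical transcript). Its level was 20.3 and 25.4 TMM-scaled CPM in the 0 h pair (22.9 ± 3.58, SD, n = 2) and 33.0, 46.4, 71.3, 79.5 and 28.9 at 4, 12, 20, 28 and 42 h. All later libraries were above the 0 h pair, the 42 h library only narrowly so. DKK3 was higher than at 0 h at 12 h (log2 change 1.02 ± 0.32, adjusted p = 0.0156 by edgeR), 20 h (1.64 ± 0.31, adjusted p = 2.54e-06) and 28 h (1.80 ± 0.31, adjusted p = 1.27e-07), but the change at 42 h, 0.34 ± 0.32, did not pass (adjusted p = 0.443). It fell by 1.46 on the log2 scale from 28 to 42 h (adjusted p = 0.0028 by edgeR). A straight line over the hours gave 1.22 ± 0.73 (adjusted p = 0.225 by edgeR). Without the 42 h library it gave 2.83 ± 0.32 (adjusted p = 0.000622 by edgeR), extrapolated to 42 h from libraries that end at 28 h. The gene USP47 on the opposite strand shares 5681 annotated exonic bases with DKK3, and whether reads were counted by strand is not given in the sources used here, so reads of the shared part may not be separable. USP47 was at 50.7 and 43.3 TMM-scaled CPM at 0 h, 57.1, 67.8, 61.3, 71.3 and 67.2 at 4, 12, 20, 28 and 42 h, above the 0 h pair throughout, and its part in the DKK3 values was not tested.

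DKK1, DKK4 and SFRP4 were at or near the floor. DKK1, a well-known target of Wnt signaling itself, had 2 to 22 counts per library in the time series (at most 0.36 TMM-scaled CPM, at 20 h) and 1 to 5 in the dose response. SFRP4 had 0 to 2 counts in every library of both experiments, and DKK4 had 0 to 2 in the time series and 0 in all 6 libraries of the dose response. Differences in SFRP4 and DKK4 were not detectable at this depth. For DKK1, the 22 counts at 20 h stood against 2 and 7 at 0 h, a log2 change of 2.18 ± 0.80 that passed with the filter lowered to a mean of 0.1 CPM (adjusted p = 0.0437 by edgeR) and did not pass without a filter (adjusted p = 0.0731). PRKG1-AS1 on the opposite strand shares 227 exonic bases with DKK1 and reached 0.578 CPM, so reads of the shared part may not be separable.

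Taken by contrast, 0 of the 5 genes other than DKK2 were called at 4 h by edgeR or DESeq2, against a background of 4.39% of genes higher and 0.632% lower, and 1, SFRP5, had an unadjusted p under 0.05 by edgeR. At 12 h 1 gene was higher (background 7.04%) and 1 lower (2.64%), at 20 h 1 was higher (12.4%) and 2 lower (6.01%), and at 28 h 1 was higher (13.3%) and 3 lower (7.04%). By 42 h none of the 5 was called higher (19.9%), while SFRP2, SFRP5 and FRZB were lower (17.8%). From one time to the next, 0 rose (0.782%) and 1 fell (0.582%) from 4 to 12 h, 0 rose (1.62%) and 1 fell (0.419%) from 12 to 20 h, 0 were called from 20 to 28 h by edgeR or DESeq2 (0.92% higher and 0.244% lower, with SFRP5 at an unadjusted p under 0.05 by edgeR), and 1 rose (3.14%) and 1 fell (6.01%) from 28 to 42 h.

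**Figure D3:**
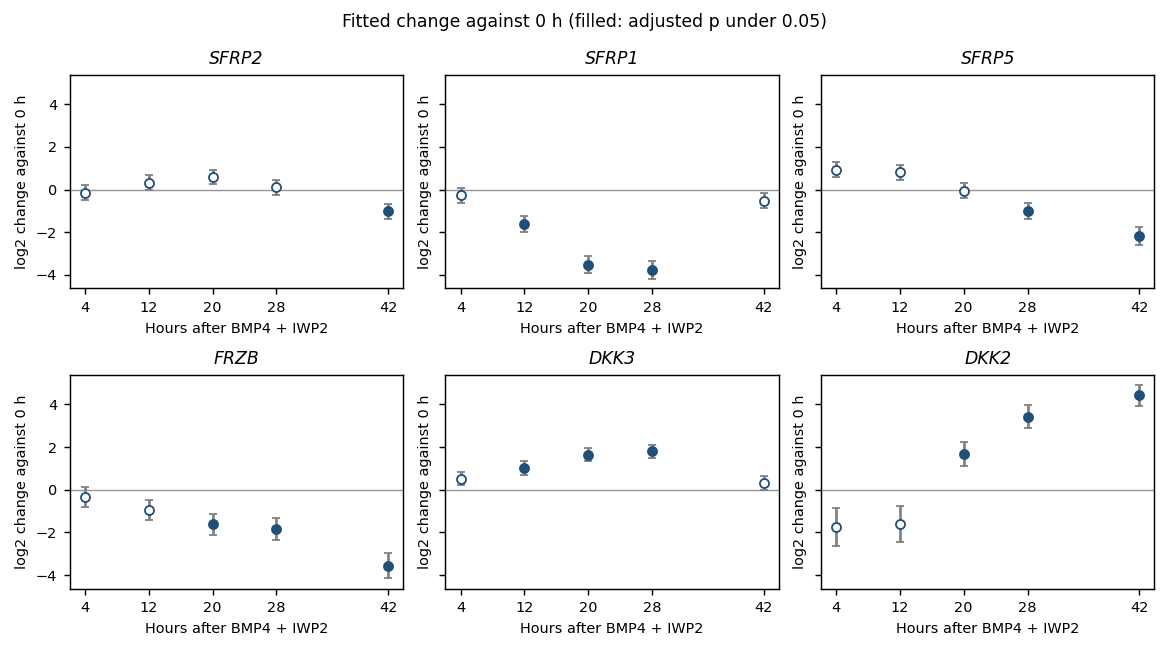
Fitted log2 change of the 6 tested antagonists against the 0 h pair at 4, 12, 20, 28 and 42 h, with bars of 1 SE and filled points where the adjusted p of edgeR's test was under 0.05. SFRP1 and DKK3 move in opposite directions until 28 h and both are nearer 0 at 42 h, whereas SFRP5, FRZB and DKK2, which passed the expression filter only through its late libraries, are farthest from 0 at 42 h. The DKK2 points shown are those of the fit with that filter, not of the unfiltered fit given in the text.

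Of the same 5 genes, the straight-line fit over hours called 0 higher by edgeR, against 19.2% of all genes, with 0 at an unadjusted p under 0.05. It called FRZB (-3.28 ± 0.35, adjusted p = 0.000339) and SFRP5 (-2.45 ± 0.75, adjusted p = 0.034) lower by edgeR, against 17.5% of all genes. The call for SFRP5 was lost without the 4 h library (adjusted p = 0.0803 by edgeR), without the 28 h library (0.0919) and without the 42 h library (0.302), and DKK2, fitted without a filter, gave 5.38 ± 0.76 on the log2 scale from 0 to 42 h (adjusted p = 0.000254 by edgeR).

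The dose response asked how the same genes at 5 h depended on the strength of BMP signaling. SFRP1 increased at every step of the inhibitor: its level was 213 TMM-scaled CPM without LDN-193189 and 251, 282, 332 and 389 at 10, 30, 100 and 300 nM, against 395 in untreated cells. The order of the 5 BMP4 libraries followed the dose throughout, and at 300 nM the level came close to that of untreated cells. The fitted log2 change from 0 to 300 nM was 0.86 ± 0.04 (SE, 5 libraries, adjusted p = 3.58e-08 by edgeR), and leaving out any 1 dose kept the adjusted p between 8.87e-08 and 1.59e-06. SFRP1 was the only tested antagonist called higher with dose, against 10.4% of the 14907 genes tested.

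SFRP5 ran the other way. Its level was 11.7, 11.7, 10.3, 8.31 and 6.90 TMM-scaled CPM at 0, 10, 30, 100 and 300 nM and 4.95 in untreated cells. Every BMP4 library lay above the untreated library, and the 300 nM library was the lowest of the 5. The fitted log2 change from 0 to 300 nM was -0.80 ± 0.14 (adjusted p = 0.00104 by edgeR, 0.00105 to 0.0285 with any 1 dose left out). DKK3 was also called lower (-0.30 ± 0.09, adjusted p = 0.0328 by edgeR), and the 2 genes compare with 10.9% of all genes called lower.

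For DKK3 the values were 29.5, 31.7, 29.5, 25.8 and 25.3 TMM-scaled CPM at 0, 10, 30, 100 and 300 nM, and 22.8 in untreated cells, so the 2 highest doses were the lowest of the BMP4 libraries. Its call did not survive DESeq2 (adjusted p = 0.0598) or leaving out the 10 nM (0.091 by edgeR), 100 nM (0.0977) or 300 nM library (0.2). USP47, the overlapping gene, fell over the same doses from 89.9 to 70.4 TMM-scaled CPM, and its part here was not tested either.

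FRZB was at 2.77, 3.73, 3.70, 4.92 and 4.29 TMM-scaled CPM at 0, 10, 30, 100 and 300 nM and at 3.28 in untreated cells. Its fitted change of 0.64 ± 0.22 missed the threshold (adjusted p = 0.0578 by edgeR). It passed without the 300 nM library (0.98, extrapolated to 300 nM, adjusted p = 0.0388 by edgeR). WIF1 was at 2.64, 2.33, 2.75, 2.78 and 3.27 and at 3.61 TMM-scaled CPM in untreated cells, with a fitted change of 0.36 ± 0.23 (adjusted p = 0.294 by edgeR). SFRP2 was at 394, 422, 419, 404 and 388 TMM-scaled CPM, and at 450 in untreated cells. Its fitted change was -0.04 ± 0.05 (adjusted p = 0.619 by edgeR). Without the 0 nM library, and extrapolated to 0 nM, it became -0.17 ± 0.04 (adjusted p = 0.0153 by edgeR), far smaller than the change of SFRP1 or SFRP5. DKK2 had 1, 0, 1, 5 and 8 counts at the 5 doses and was not tested.

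**Figure D4:**
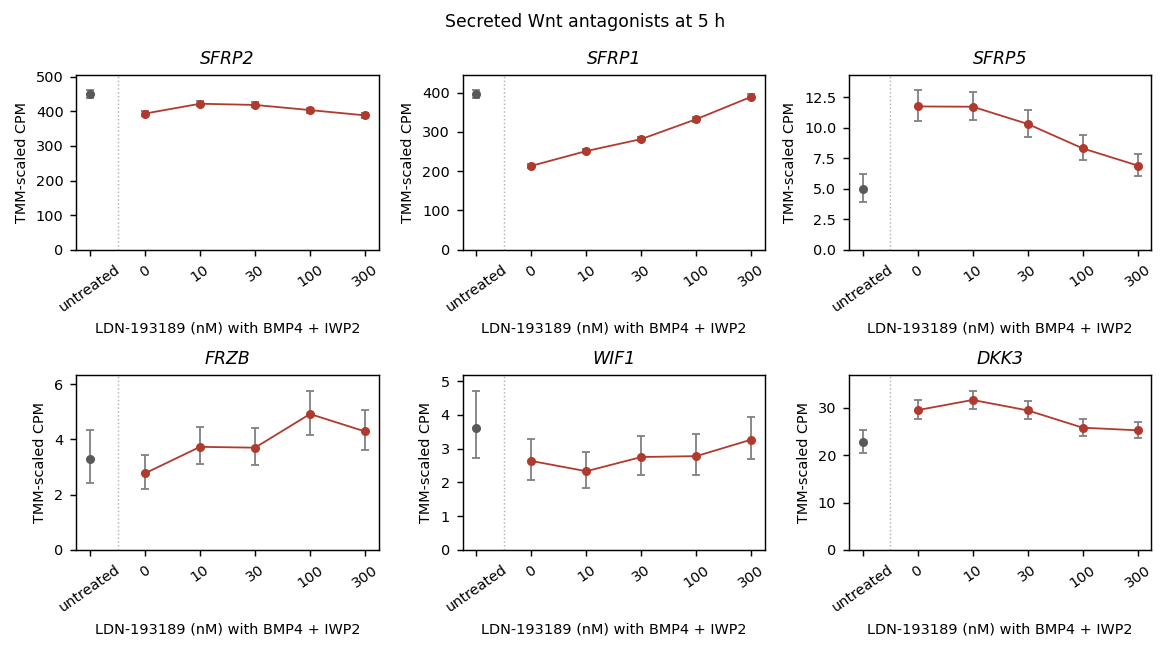
TMM-scaled CPM of 6 antagonists at 5 h in untreated cells (gray) and in cells with BMP4 and IWP2 at 0 to 300 nM LDN-193189 (red), 1 library per point with 95% exact counting intervals. SFRP1 rises from 213 to 389 across the doses, SFRP5 falls from 11.7 to 6.90, and SFRP2 stays between 388 and 422 in the BMP4 libraries.

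Between BMP4 with IWP2 and untreated cells at 5 h there was 1 library each, so no test was possible and the intervals cover counting error only. SFRP5 was 2.37-fold higher with BMP4 and IWP2 (95% interval 1.84 to 3.09) and was the only 1 of the 6 antagonists above the filter past 2-fold, against 5.63% of 14877 genes higher and 2.61% lower by that margin. SFRP1 was at 0.540 of its untreated level (0.521 to 0.560), and SFRP2 at 0.876 (0.850 to 0.903). DKK3 was 1.29-fold higher (1.14 to 1.47). For FRZB (0.846, interval 0.586 to 1.23) and WIF1 (0.729, interval 0.508 to 1.05) the interval included no change.

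Of the antagonists, 3 averaged 10 CPM or more over the time series, and for these the genes with the most similar profile were sought over the 13 libraries, each centred on its own experiment, among 9581 genes. The closest to SFRP1 were ADAMTS16 (Pearson r = 0.983), KLHDC7A (0.967) and PRUNE2 (0.961). For SFRP2 they were NLGN3 (0.979), SPATA13 (0.974) and HAS3 (0.972), and for DKK3 CAMKK2 (0.987), TMEM158 (0.969) and NPTXR (0.959). SFRP1 and DKK3 themselves were opposed (r = -0.93). These coefficients share libraries and are descriptions of 13 points.

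Other components of the pathway changed in both directions over the same libraries. Of all genes tested, 19.2% were called higher and 17.5% lower with hours, and 10.4% higher and 10.9% lower with dose. Short lists with counts near these shares do not stand out from all genes. Of the 10 Frizzled receptors, all tested, the hours fit called FZD4 higher (2.46 on the log2 scale) and FZD7 (-2.83) and FZD3 (-0.92) lower, and with LDN-193189 dose FZD7 (1.14) and FZD2 (0.76) were called higher and FZD1 (-2.52) and FZD4 (-1.08) lower. Among the 4 co-receptors that the DKK proteins engage, KREMEN1 (2.15) and LRP5 (0.92) were higher and LRP6 (-0.93) lower with hours, and 0 were called with dose by edgeR, where KREMEN2 (0.32) had an unadjusted p under 0.05. Of 19 WNT ligands, 10 were tested over hours, with 5 called higher, led by WNT6 (13.36), WNT5B (7.40) and WNT7B (4.65), and none lower. WNT6 and WNT7B were at most 0.243 and 0.640 CPM through 12 h. Like DKK2, they passed the filter only through later libraries where they were high, so the count of higher ligands depends in part on the filter. At 5 h 4 were tested, with WNT5A (1.06) called higher and WNT3 (-1.86) and WNT2B (-0.88) lower. Of 17 other Wnt modulators, secreted or in the cell membrane, 8 were tested over hours. RNF43, a ubiquitin ligase that removes Frizzled receptors, was higher (5.95), and TRABD2B (-3.19), APCDD1 (-2.01), RSPO4 (-1.85) and TRABD2A (-1.45) were lower. With dose, NOTUM, an enzyme that inactivates WNT ligands, was lower (-4.26) and TRABD2A (0.54) and LGR4 (0.40) higher. Of the 6 Wnt target genes, 5 were tested over hours, with TNFRSF19 higher (5.84) and AXIN2 lower (-2.66), and of 4 tested with dose AXIN2 was higher (1.42) and NKD1 (-0.64) and TCF7 (-0.61) lower.

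Markers of cell state moved in the same libraries, and their part in the antagonist profiles was not tested. The shares of all genes to set beside these counts are 19.2% higher and 17.5% lower with hours, and 10.4% higher and 10.9% lower with dose. Of the 8 BMP target genes, 2 passed the hours fit, ID2 (3.82) and MSX2 (8.85), all 8 were higher than at 0 h at every later time, and all 8 were lower with LDN-193189 dose, led by SMAD6 (-3.68), MSX2 (-3.68) and BAMBI (-2.54). Of the 6 amnion-like markers, 4 were higher with hours, led by HAND1 (14.30), ISL1 (10.14) and GABRP (6.54), and 4 of 5 tested were lower with dose, led by TFAP2A (-4.94), HAND1 (-4.86) and GATA3 (-4.67). GABRP did not rise throughout, as it was called lower than at 0 h at 12 and 20 h. Of the 5 pluripotency markers, 4 were lower with hours, led by PRDM14 (-6.91), NANOG (-6.14) and TDGF1 (-5.30), and 3 were higher with dose, PRDM14 (2.36), SOX2 (0.35) and TDGF1 (0.29).

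Markers of other cell types were scarce. The summed level of the 4 primitive streak markers was 1.42 to 4.71 TMM-scaled CPM in the time series, that of the 5 neural markers 1.37 to 8.19, that of the 5 endoderm markers 1.21 to 4.85 and that of the 5 trophoblast markers 0.096 to 0.504, with PSG1 and SIGLEC6 at 0 in all libraries. In the dose response these sums were 1.41 to 3.63, 0.66 to 1.71, 1.99 to 6.96 and 0 to 0.204. None of these markers was called with hours or with dose by edgeR. EOMES and SIX3, the only ones past the expression filter in the time series, were called higher than at 0 h at 4, 12, 20 and 28 h, and SIX3 at 42 h as well. Of all genes, 4.39, 7.04, 12.4, 13.3 and 19.9% were called higher at these times. Like DKK2, EOMES and SIX3 passed the filter only through libraries after 0 h where they were high, so these calls depend in part on the filter. In the 0 h pair the 4 primitive streak markers summed to 1.66 and 1.42 TMM-scaled CPM, and the 5 neural markers to 1.37 and 1.56. Of the 5 mesenchyme and mesoderm markers, 4 were tested over hours, with TWIST1 (4.17) and TBX6 (2.63) higher and COL1A1 (-0.96) lower, and PDGFRA was higher with dose (0.74). For all genes the shares called with hours and with dose were those given above. Their summed level, mostly COL1A1, was 110 to 201 TMM-scaled CPM in the time series and 99.1 to 132 in the dose response.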

How the data were processed

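Bulk RNA-seq of 13 libraries was analysed as 7 time-series and 6 dose-response libraries. Per the study's methods and processing notes, Cutadapt trimmed the reads, STAR 2.7.8a aligned them to GRCh38 and RSEM 1.3.3 estimated expression. The deposited expected counts (estimated counts per gene, whole numbers as deposited, unscaled) were tested, and the FPKM deposited by the authors served for levels between genes and as an alternative. Of 61546 features, 5 that are not human were left out. Counts were analysed in R 4.3.3 with edgeR 4.0.16 (TMM scaling, quasi-likelihood test, Benjamini-Hochberg adjustment over all tested genes, threshold 0.05) on genes averaging 1 CPM or more. Models used hours as a line, time as 6 levels with 1 residual degree of freedom, and the LDN step over 5 libraries. TMM-scaled CPM is CPM divided by the TMM factor of the library. Floors are 3 counts and intervals 95% exact, covering counting error only. Alternatives used DESeq2 1.42.0 and limma 3.58.1 on log2(FPKM + 0.1). Fits were tested on simulated data, with a spread between libraries that was set and not estimated. The contrast of 42 h against 0 h found 33% of simulated log2 changes of 1 and 100% of those of 3. For changes of 1, the line over hours found 97% and the line over dose 91%. Changes of about 1 against 0 h that did not pass may therefore have been missed.

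Similar profiles were ranked on log2(CPM + 0.5). The 10 genes, the lists of pathway genes and cell type markers, and the rule for naming genes (all 10 antagonists, at most 3 called genes of each other list in each direction for hours and dose, and the 3 most similar profiles) were chosen with earlier results of these data known. USP47 was named after its overlap with DKK3 was found, and POU5F1, EOMES, SIX3, PSG1 and SIGLEC6, all on the marker lists, and RSPO4, TRABD2A and SOX2 were named outside the rule. Promoter sequences came from RefSeq, which gave 6 of the 10 genes, and chromosome 8 was not searched. Gene coordinates and exons came from GENCODE on GRCh38.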

Additional observations from a re-analysis of the deposited data

How the results depend on the processing

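Of the alternatives, 3 turned a direction, all in changes that were not called: SFRP2 over hours became 0.59 on the log2 scale without the 42 h library (range -0.71 to 0.59 with any 1 library left out), DKK2 from 4 to 12 h became -0.11 with FPKM and limma, and SFRP2 with LDN dose became 0.040 without the 300 nM library (range -0.17 to 0.040 with any 1 dose left out). No paired analysis was possible because only 0 h had more than 1 library. Scaling by library totals moved the median of all genes at 42 h against 0 h from -0.01 to -0.25 on the log2 scale, and the changes above are relative to the TMM median. Among the 6 tested antagonists, DKK2 included although it passed the filter only through its late libraries, the hours fit called 0 to 1 higher and 1 to 2 lower with any 1 library left out, and 1 lower with the order of the times in place of hours. DKK2 was fitted in 5 of the settings with 1 library left out, with log2 changes of 4.92 to 5.90. In the remaining settings it fell below the filter and was not tested. Against 0 h, library totals called 1 higher at 4 h, and DESeq2 called 1 higher and 1 lower at 20 h and 1 lower at 28 h. FPKM with limma called 0 higher at 12 h and, with DKK2 counted as well, 1 higher at 20 h. Between neighbouring times, 0 were lower from 4 to 12 h without a filter, at 0.1 CPM or with FPKM. From 12 to 20 h, 0 were higher with DESeq2 or FPKM and 0 lower with FPKM. From 28 to 42 h, 2 were lower with DESeq2 or its size factors, 4 with library totals and 0 with FPKM. With dose, among the 6 antagonists tested there, 2 were higher without a filter or on log10 dose and 1 to 2 with any 1 dose left out, and 1 was lower at 0.1 CPM, with DESeq2, FPKM or log10 dose and 1 to 3 with any 1 dose left out. The shares of all genes given above are those of the main fits, and shares under each alternative are not listed for these counts. The counts therefore show only how the calls moved, and cannot be set against the share of all genes under the same alternative. Over all genes, leaving out 1 library gave 1872 to 3436 higher and 1387 to 3166 lower with hours, and 874 to 1423 higher and 1104 to 1551 lower with dose. FPKM with limma called 1794 genes higher at 42 h, and 415 higher and 692 lower with dose. Where a call changed, the cause was not tested. The calls of SFRP1 against 0 h at 12, 20 and 28 h and with dose, and of SFRP5 with dose, held under every alternative with a test. The single libraries after 0 h limit every change over time, and FRZB, WIF1 and DKK2 rest on few counts.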
